A study of Mus musculus with 6 samples.

Results

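Cancer-associated fibroblasts (CAFs) are the matrix-producing connective tissue cells of a tumour, and 10 genes used as markers of them were followed by symbol in a deposited count matrix of 34665 rows. The genes were 4 of the cell surface (Pdgfra, Fap, Pdpn and Thy1) and 6 of the extracellular matrix (Postn, Fbln1, Fbln2, Mfap5, Dpt and Fbn1). Each symbol matched 1 row, and all 10 passed the filter on low counts that left 16924 genes. RNA came from tumours of B16, a mouse melanoma cell line, and the labels give the genotype as WT. The RT_ICI tumours are labelled with radiation plus an immune checkpoint inhibitor (n = 3 libraries, replicates 1, 2 and 4), and the ICI tumours with the checkpoint inhibitor alone (n = 3, replicates 1, 2 and 3). The labels do not say whether the sequenced RT_ICI tumours were themselves irradiated. Both groups thus carry an inhibitor in their labels, and there was no untreated or radiation-only group among these samples. Which checkpoint was blocked, the dose and timing of radiation, the age of the mice and the position of the tumour relative to the beam are stated in none of the labels used. The labels name the cell type as melanoma cells, but the libraries came from whole tumours, which also hold stroma. By its title the series concerns CAFs and responses outside the radiation field, and the comparison asks how far CAF transcripts differ when radiation is added.

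Fibroblasts of a tumour are recognised by receptors and enzymes on their surface and by the matrix that they lay down. Platelet-derived growth factor drives their growth through Pdgfra and its relative Pdgfrb, and the secreted matrix proteins assemble around collagen fibres and around microfibrils, the fibrillin scaffolds on which elastin is deposited. None of these genes is confined to fibroblasts. Thy1 is also carried by mouse T cells, and Pdpn by lymphatic endothelium.

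The libraries held 32855257, 45624013 and 22543721 counts in RT_ICI replicates 1, 2 and 4. ICI replicates 1, 2 and 3 held 32201558, 37980103 and 43109047. Levels are given as CPM (counts scaled to library size) after scaling by trimmed mean of M values, and a gene was called at an edgeR p under 0.05 after Benjamini-Hochberg adjustment over all tested genes. One library in each group stood apart. RT_ICI replicate 1 detected 29748 rows (22763 to 24891 elsewhere) and was the highest RT_ICI library for 9 of the 10 CAF markers. ICI replicate 2 was the lowest ICI library for all 10 and the lowest of all 6 for 8. The summed CPM of 10 fibroblast matrix genes (8 collagen chains, Dcn and Lum) was 939, 620 and 493 in RT_ICI, against 482, 170 and 1034 in ICI. This sum varied 6.07-fold between ICI tumours and 1.91-fold between RT_ICI tumours. Not all fibroblast genes varied as much. Fbln1 varied 1.49-fold between ICI tumours. A list of 10 other fibroblast genes summed to 167, 132 and 216 CPM in RT_ICI and 128, 132 and 153 CPM in ICI. These sums depend heavily on 1 gene, Serpinf1, at 28.6, 38.9 and 125 CPM in RT_ICI and 34.9, 74.3 and 30.7 CPM in ICI. Prrx1 of the same list ran from 1.76 to 8.38 CPM in ICI. As log2 CPM centred per gene, the 8 tested genes of this list averaged -0.20, -0.66 and 0.19 in ICI. The matrix genes averaged -0.17, -1.56 and 0.85 in ICI. Mitochondrially encoded genes took 14.7%, 12.7% and 11.5% of all counts in RT_ICI, against 4.39%, 5.01% and 4.39% in ICI, without overlap. With these genes left out before scaling, the median log2 fold change of all genes was 0.014, as in the main fit. In both fits 4 markers had an unadjusted edgeR p under 0.05. Any part of these genes in the differences of the markers beyond scaling was not tested. In bulk RNA, fewer fibroblasts and less RNA per fibroblast cannot be told apart.

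Upstream sequence is shown for 3 markers: Fbln1, with a lower group mean in RT_ICI, Postn, with similar group means, and Pdgfra, with a higher group mean in RT_ICI. Thy1 and Mfap5, with the lowest and highest log2 fold changes of the 10, had no matching window, nor had Fap. The sequences are the 250 bases before the annotated start (RefSeq, GRCm38.p6), written 5′ to 3′ on the strand of the gene, and capitals mark a TATA box motif.
Fbln1, chr15:85205699-85205948, + strand: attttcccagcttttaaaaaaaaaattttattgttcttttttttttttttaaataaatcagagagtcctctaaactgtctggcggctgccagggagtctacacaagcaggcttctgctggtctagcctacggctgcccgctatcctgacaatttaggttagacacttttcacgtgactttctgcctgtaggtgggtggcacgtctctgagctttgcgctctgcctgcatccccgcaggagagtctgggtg
Postn, chr3:54360857-54361106, + strand: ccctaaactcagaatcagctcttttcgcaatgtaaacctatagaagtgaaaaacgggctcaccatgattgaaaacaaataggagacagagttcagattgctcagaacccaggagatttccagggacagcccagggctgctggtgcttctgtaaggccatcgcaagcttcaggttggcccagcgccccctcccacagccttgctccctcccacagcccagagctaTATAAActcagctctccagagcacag
Pdgfra, chr5:75152001-75152250, + strand: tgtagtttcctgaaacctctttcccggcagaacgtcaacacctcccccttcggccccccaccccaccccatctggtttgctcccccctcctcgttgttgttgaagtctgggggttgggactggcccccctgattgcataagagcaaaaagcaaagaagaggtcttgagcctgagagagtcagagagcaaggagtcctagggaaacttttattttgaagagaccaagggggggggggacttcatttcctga
The letters searched on both strands were TATAAA for the TATA box, GGGCGG for SP1, TGANTCA for AP-1 and GGAATG for TEAD. RefSeq gives 2 windows for Postn: the one shown, nearer to the GENCODE start of the gene, holds TATAAA, and the other holds none of these letters. TATAAA was present in 12.4% of 32851 annotated upstream windows of the same length. No other match to these letters was present in the 3 windows, while 32.7% of all windows held the SP1 letters, 6.75% the AP-1 letters and 12.6% the TEAD letters.

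Across the 10 markers there was no common direction. By group means, Mfap5, Dpt, Pdgfra, Pdpn and Fbln2 were 2.06-fold to 3.09-fold higher in RT_ICI tumours, Thy1 was 2.09-fold lower and Fbln1 1.52-fold lower, and Fap, Postn and Fbn1 differed by less. In edgeR 0 of 10 were called in either direction, where 9.18% of all tested genes were called (4.46% higher and 4.72% lower in RT_ICI). At an unadjusted p under 0.05 there were 4 (Thy1, Mfap5, Fbln1 and Pdgfra), against 31.5% of all genes. The median log2 fold change of the 10 was 0.51, with 5 positive, and that of all tested genes was 0.014. DESeq2 called 3, Mfap5 higher (adjusted p = 0.00387) and Thy1 and Fbln1 lower (0.0101 and 0.0342), where it called 20.8% of 16571 genes, and limma-voom called 0 where it called 8.91% of all genes. Without RT_ICI replicate 1, edgeR called Thy1 and Fbln1 lower (adjusted p = 0.0426 and 0.0298) where 17.7% of all genes were called and 8.8% were called lower. Without ICI replicate 2 it called Thy1 lower (adjusted p = 0.0466), where 3.02% of all genes were called and 291 of 17388 were called lower. Without the filter on low counts it called Thy1 and Fbln1 lower, where 7.58% of all genes were called and 1507 of 34665 were called lower. The groups did not overlap for 2 of the 10 markers, Mfap5 and Fbln1, and for 37.2% of all tested genes.

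**Figure D1:**
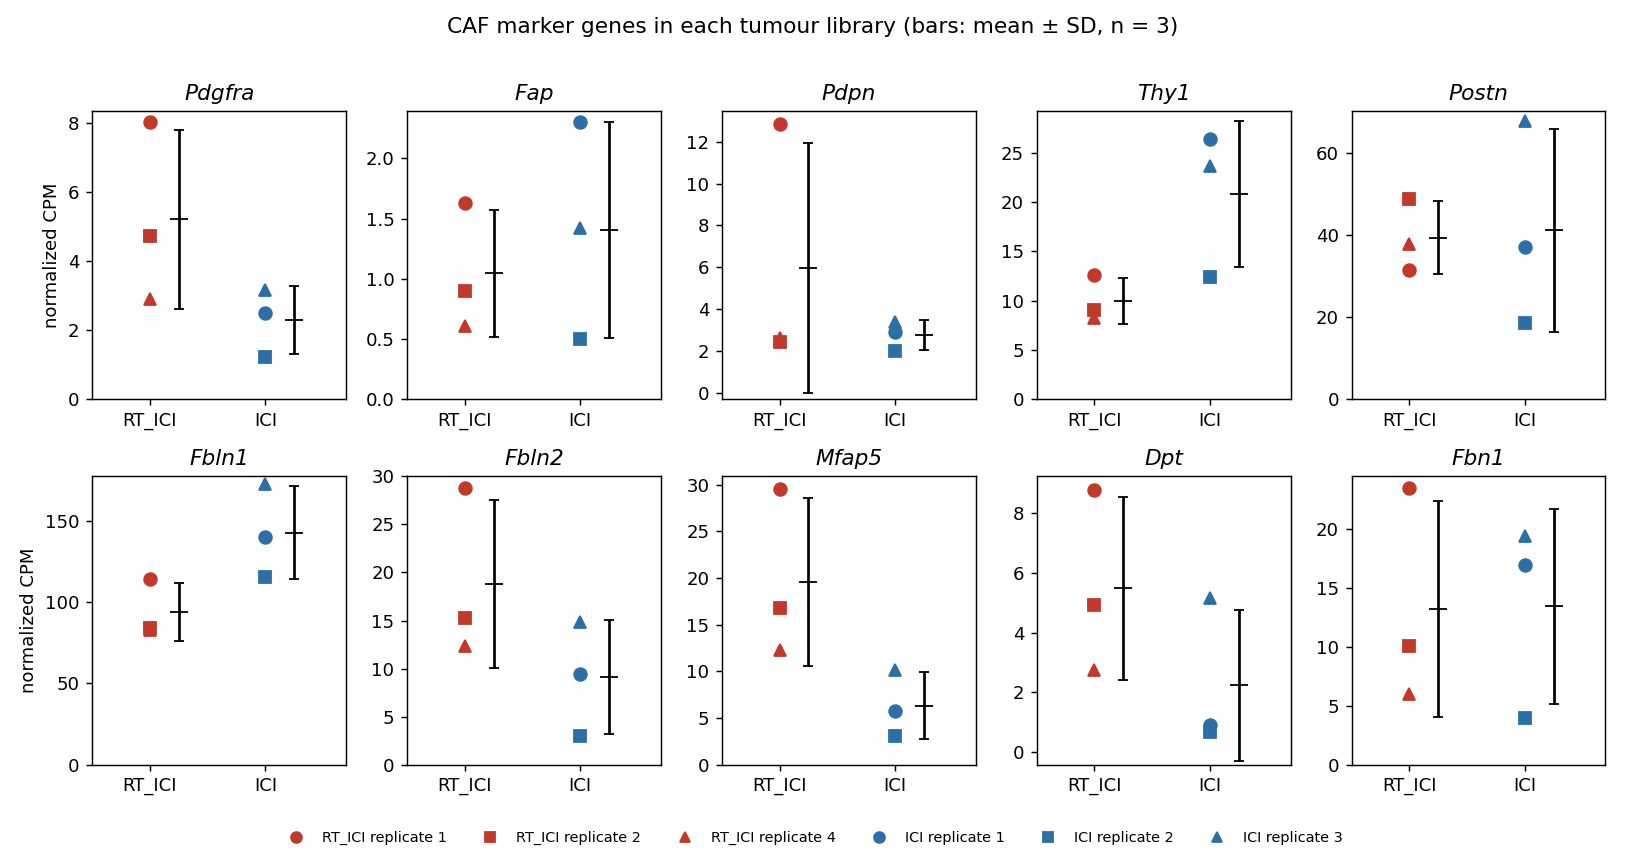
Normalized CPM of the 10 CAF marker genes in each library, RT_ICI (red) left of ICI (blue), with symbols for replicates and black bars for the mean ± SD (n = 3 each). Mfap5 and Fbln1 are the 2 genes with no overlap between the groups, and the red circle of RT_ICI replicate 1 is the highest of its group in every panel except Postn.

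Of the surface proteins, Pdgfra encodes the alpha receptor for platelet-derived growth factor (chromosome 5, 75152292 to 75198215 on GRCm38). Its transcript was at 8.02, 4.73 and 2.89 CPM in RT_ICI (replicates 1, 2 and 4), against 2.50, 1.23 and 3.18 CPM in ICI (replicates 1, 2 and 3). The groups overlapped only through RT_ICI replicate 4 and ICI replicate 3. RT_ICI over ICI, the log2 fold change was 1.18 (SE 0.47, 95% interval 0.10 to 2.25, adjusted p = 0.130). Without RT_ICI replicate 1 it was 0.73 and without ICI replicate 3 it was 1.47.

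Fap encodes a serine protease of activated fibroblasts that cleaves denatured collagen (chromosome 2, 62500943 to 62574075). It was the lowest of the 10, at 1.63, 0.901 and 0.607 CPM in RT_ICI, against 2.30, 0.503 and 1.42 CPM in ICI. The groups overlapped throughout, with the highest and the lowest value both in ICI. As few as 13 counts stood behind a library, a counting error of 27.7%. With a log2 fold change of -0.42 (95% interval -1.78 to 0.94, adjusted p = 0.653) Fap was not called, and without ICI replicate 1 the value was 0.11.

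Pdpn encodes podoplanin, a mucin-like membrane protein that binds a platelet receptor (chromosome 4, 143267431 to 143299564). Its level was 12.8 CPM in RT_ICI replicate 1 but 2.41 and 2.61 CPM in RT_ICI replicates 2 and 4, against 2.93, 1.99 and 3.41 CPM in ICI. A single library therefore carried the higher mean of RT_ICI. The log2 fold change of 1.10 (SE 0.66, adjusted p = 0.290) was -0.15 without that library. Genes of lymphatic endothelium, which also makes Pdpn, summed to 49.0, 21.3 and 15.5 CPM in RT_ICI and 28.7, 16.2 and 18.0 CPM in ICI over 6 genes. Ccl21a, Mmrn1 and Reln of that list were at 0 in RT_ICI replicate 4, where Pdpn stood at 2.61 CPM, and 0 of 6 were called. The part of this endothelium in the higher Pdpn of RT_ICI replicate 1 was not tested.

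Thy1 encodes the glycolipid-anchored surface protein Thy-1, also called CD90 (chromosome 9, 44043384 to 44048579). It was at 12.6, 9.08 and 8.21 CPM in RT_ICI, against 26.4, 12.4 and 23.6 CPM in ICI. All RT_ICI libraries lay below ICI replicates 1 and 3, and ICI replicate 2 lay just under the highest RT_ICI library. This gave a log2 fold change of -1.06 (SE 0.30, 95% interval -1.76 to -0.36, adjusted p = 0.0621). T cell genes other than Thy1 were also lower on average: the 8 on the list summed to 16.9, 1.87 and 1.68 CPM in RT_ICI and 49.8, 17.2 and 5.12 CPM in ICI, with Cd2 and Cd28 at 0 in RT_ICI replicate 4 and 0 of 8 called. ICI replicate 3 had high Thy1 (23.6 CPM) beside low T cell genes (Trac at 0.753 CPM). RT_ICI replicate 1 had 12.6 CPM of Thy1 beside T cell genes near those of ICI replicate 2, and the part of T cells in the group difference was not tested.

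Among the matrix genes, Mfap5 showed the largest difference. It encodes a microfibril-associated glycoprotein that binds fibrillin (chromosome 6, 122505845 to 122529290). Mfap5 was at 29.6, 16.8 and 12.3 CPM in RT_ICI, against 5.75, 3.04 and 10.2 CPM in ICI. Every RT_ICI library lay above every ICI library, as was the case for 17.8% of all tested genes. The fold was 3.09 (log2 fold change 1.63, SE 0.49, 95% interval 0.47 to 2.79, adjusted p = 0.0774). It ran from 1.20 on the log2 scale without RT_ICI replicate 1 to 2.14 without ICI replicate 3.

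Fbn1 encodes fibrillin-1, the backbone of the same microfibrils (chromosome 2, 125300594 to 125507993). It did not follow Mfap5, at 23.6, 10.1 and 6.02 CPM in RT_ICI and 17.0, 4.00 and 19.4 CPM in ICI. The ranges of the groups nearly coincided. Its log2 fold change was -0.023 with a 95% interval of -1.75 to 1.71 (adjusted p = 0.987), which allows a difference of more than 2-fold either way. An antisense gene, Gm9913, covers 20.1% of the exonic length of Fbn1 and held at most 1 count in any library. Fbn1 itself held 129 to 928 counts, so hardly any reads were assigned to Gm9913. The strand setting is not stated, so reads from Gm9913 could have been counted at Fbn1.

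The fibulins bind fibrillin, fibronectin and basement membrane proteins, and the 2 on the list went opposite ways by group means. Fbln1, fibulin-1 (chromosome 15, 85205949 to 85286535), was at 114, 83.9 and 83.0 CPM in RT_ICI, against 140, 116 and 173 CPM in ICI. All RT_ICI libraries lay below all ICI libraries, a separation shared by 19.4% of all tested genes, but RT_ICI replicate 1 and ICI replicate 2 were close. Fbln1 had a log2 fold change of -0.61 (SE 0.19, 95% interval -1.05 to -0.16, adjusted p = 0.0795). Fbln2, fibulin-2 (chromosome 6, 91212455 to 91272540), was at 28.7, 15.2 and 12.4 CPM in RT_ICI, against 9.49, 3.02 and 14.8 CPM in ICI. ICI replicate 3 overlapped the RT_ICI range and the other ICI libraries lay below it. Its log2 fold change was 1.04 (SE 0.59, adjusted p = 0.274). It was 0.60 without RT_ICI replicate 1, 0.61 without ICI replicate 2 and 1.58 without ICI replicate 3.

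The ratio of Fbln2 to Fbln1 within a library is hardly touched by how libraries are scaled. Its log2 value was -1.99, -2.46 and -2.74 in RT_ICI, against -3.88, -5.23 and -3.54 in ICI. RT_ICI libraries were all above ICI libraries, and the difference of 1.82 had an exact permutation p = 0.1 (2-sided), below which 3 against 3 libraries cannot go. The log2 ratio of Mfap5 to Fbn1 averaged 0.69 ± 0.35 in RT_ICI and -0.96 ± 0.58 in ICI (SD, n = 3 each), also with no overlap and exact permutation p = 0.1. The ratio of Dpt to Postn differed by 1.61 with overlap between the groups (exact permutation p = 0.2). These 3 pairs were chosen after their values were seen. Each set a marker with a higher group mean in RT_ICI over one with a lower or similar mean. That choice favours separation, so the permutation p-values cannot test whether the ratios differ between groups. Adjusted over the 3 pairs the permutation p was 0.15, 0.15 and 0.2, which leaves out the other pairs that could have been chosen. How often other pairs of markers were separated was not tested.

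Dpt encodes dermatopontin, a small protein that binds decorin and collagen and marks a broadly distributed type of mouse fibroblast (chromosome 1, 164796644 to 164824266). It varied most of the 10, 13.4-fold between the highest and the lowest library. Dpt was at 8.80, 4.91 and 2.75 CPM in RT_ICI, against 0.891, 0.654 and 5.16 CPM in ICI. ICI replicate 3 stood with RT_ICI, and ICI replicates 1 and 2 lay below all others. The log2 fold change was 1.29 (SE 0.84, 95% interval -0.72 to 3.29, adjusted p = 0.330), with 2.81 without ICI replicate 3 and 0.77 without RT_ICI replicate 1. Adipocyte genes were distributed in a similar way, with the 8 on the list summing to 79.9, 59.9 and 67.6 CPM in RT_ICI and 0.805, 0.679 and 26.5 CPM in ICI, 1 of 7 tested called higher (Plin4) and 0 lower. In ICI replicates 1 and 2 Plin1, Pck1 and Cidec were at 0. The part of adipose tissue in the Dpt values was not tested.

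Postn encodes periostin, a matricellular protein that promotes collagen cross-linking and binds integrins (chromosome 3, 54361109 to 54391037). It was at 31.4, 48.8 and 37.8 CPM in RT_ICI, against 37.1, 18.7 and 67.7 CPM in ICI. The RT_ICI values lay inside the range of ICI. Group means were 39.3 ± 8.83 CPM in RT_ICI and 41.1 ± 24.7 CPM in ICI (SD, n = 3 each), with a log2 fold change of -0.065 (95% interval -1.14 to 1.01, adjusted p = 0.936). It was 0.49 without ICI replicate 3. Postn was the one marker that RT_ICI replicate 1 held at the lowest level of its group.

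**Figure D2:**
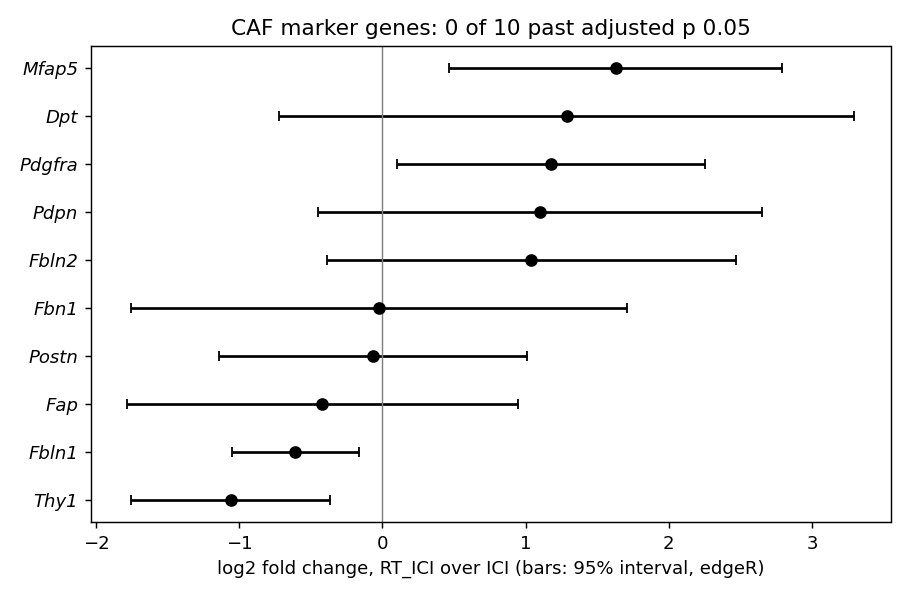
Log2 fold change of each CAF marker gene, RT_ICI over ICI, with its 95% interval from the edgeR fit, from the highest (Mfap5, 1.63) at the top to the lowest (Thy1, -1.06) at the bottom. The intervals of Mfap5, Pdgfra, Fbln1 and Thy1 leave out 0, and 0 of the 10 genes passed an adjusted p of 0.05.

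Per kilobase of the longest transcript, Fbln1 was the most abundant marker, at 25.6 CPM per kilobase in RT_ICI and 39.0 in ICI. Next in RT_ICI were Mfap5 (7.86), Postn (7.53) and Thy1 (5.74 CPM per kilobase), whose SDs between libraries were larger than the gaps between Mfap5 and Postn. In ICI the order after Fbln1 was Thy1 (12.0), Postn (7.88) and Mfap5 (2.54 CPM per kilobase). Fap and Pdgfra, the protease and the receptor, were the lowest in both groups, at 0.365 and 0.763 CPM per kilobase in RT_ICI and 0.491 and 0.337 in ICI. Levels of Fbln1 varied least, 2.08-fold over the 6 libraries, and Dpt, Mfap5 and Fbln2 most, 13.4-fold, 9.71-fold and 9.51-fold.

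Since the level of fibroblast matrix transcripts differed between libraries, each marker was also set against the mean log2 level of the 10 fibroblast matrix genes in the same library. Relative to them, Mfap5, Fbln2 and Dpt were higher in every RT_ICI library than in any ICI library, and Thy1 and Fbln1 lower. For Dpt the gap was narrow. Such separation was seen for 5.96% of all tested genes, 0.591% in the upward and 5.37% in the downward direction. Of the 10 markers 3 were separated upward and 2 downward. The mean log2 level of the matrix genes itself ran from 3.43 to 5.85 in ICI, and this spread enters every ratio. Genes that do not vary with the matrix genes therefore tend to overlap. The share over all genes thus cannot tell whether the markers were separated more often than other fibroblast genes. Upward separation was also seen for 5 of 7 tested adipocyte genes and 2 of 11 genes of the Pi16 and Dpp4 type. It was seen for 2 of 12 inflammatory CAF genes and 1 of 16 microfibril and elastic fibre genes too. Downward separation was seen for 3 of 8 pericyte and smooth muscle genes, 2 of 4 PDGF ligands and 2 of 8 other fibroblast genes. It was also seen for 2 of 7 genes each of blood endothelium and macrophages, 2 of 13 myofibroblast-type, 2 of 12 inflammatory and 1 of 11 Pi16 and Dpp4 type genes. Among the 10 matrix genes themselves 1 was separated upward and 4 downward. Each of those is part of the mean it was set against, so their counts give no measure for the markers. For Mfap5 the log2 ratio was -1.09 ± 0.18 in RT_ICI and -2.20 ± 0.36 in ICI, and for Thy1 -1.99 ± 0.16 in RT_ICI and -0.39 ± 0.79 in ICI (SD, n = 3 each). The 5 separated markers each had a 2-sided exact permutation p = 0.1, the smallest possible, and p = 0.2 after adjustment over the 10 markers. Pdgfra had a log2 ratio of -3.01 ± 0.30 in RT_ICI and -3.57 ± 0.55 in ICI (exact permutation p = 0.2), with overlap. Fap, Postn, Fbn1 and Pdpn had exact permutation p from 0.3 to 0.9.

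**Figure D3:**
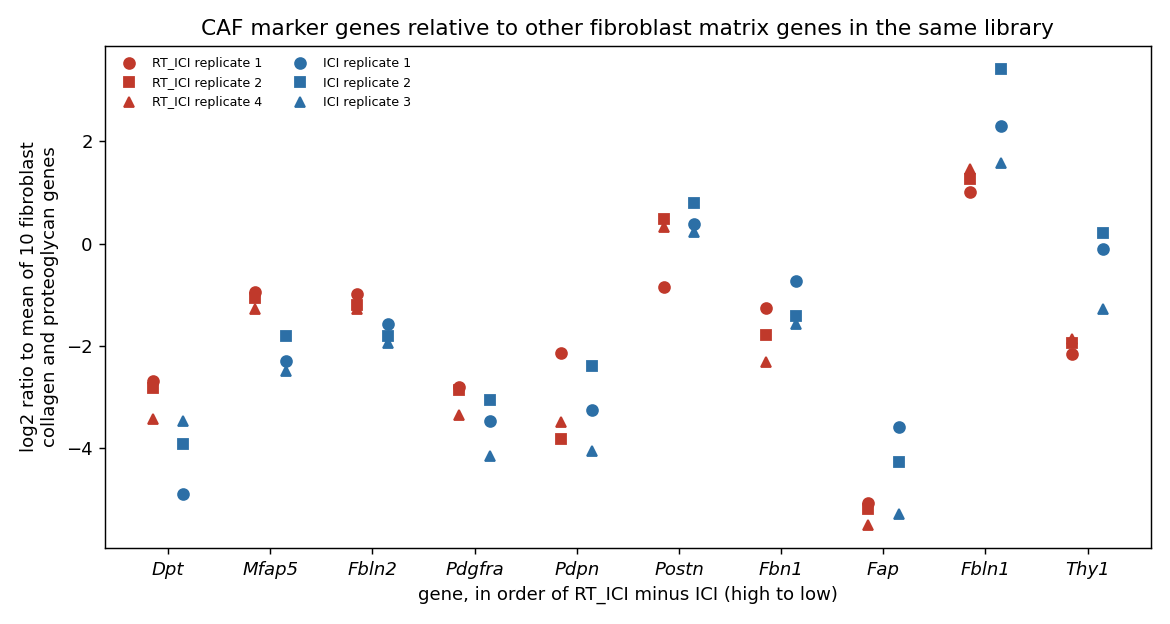
Log2 ratio of each CAF marker gene to the mean of 10 fibroblast collagen and proteoglycan genes in the same library, RT_ICI (red) left of ICI (blue), genes in the order of the difference between groups. Dpt, Mfap5 and Fbln2 are separated upward in RT_ICI and Fbln1 and Thy1 downward, and the 3 RT_ICI values of Thy1 lie between -2.17 and -1.87.

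Of the 10 fibroblast matrix genes 0 were called by edgeR, with a median log2 fold change of 0.22, and 1 had no overlap between groups. Col1a1, the main chain of type I collagen, was at 248, 151 and 128 CPM in RT_ICI, against 104, 38.4 and 274 CPM in ICI (adjusted p = 0.774), and Col3a1 averaged 1.44-fold higher in RT_ICI (adjusted p = 0.636). Dcn, decorin, was the separated one, chosen after its values were seen, at 48.4, 10.2 and 8.12 CPM in RT_ICI and 5.58, 1.23 and 6.71 CPM in ICI (adjusted p = 0.166). Of 8 tested genes of other fibroblast functions 0 were called, with a median of 0.33, and 2 had no overlap, both higher in RT_ICI, as were 17.8% of all tested genes. They are named here after their values were seen. Mmp2, a matrix metalloproteinase, was at 22.6, 17.0 and 18.4 CPM in RT_ICI, against 9.63, 7.17 and 14.6 CPM in ICI (adjusted p = 0.0708). Twist1, a mesenchymal transcription factor, was at 2.23, 1.49 and 1.03 CPM in RT_ICI, against 0.575, 0.528 and 1.02 CPM in ICI (adjusted p = 0.120), so its groups were barely apart. Tbx15, a mesenchymal transcription factor, and Serpinf1, a secreted anti-angiogenic serpin, had adjusted p = 0.418 and 0.668.

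Of 11 tested genes of fibroblasts of the Pi16 and Dpp4 type, adventitial fibroblasts that also carry Dpt in mouse, 2 were called higher and 0 lower. Over all tested genes 4.46% were called higher and 4.72% lower. The log2 fold change was positive for 8 of the 11 (median 0.41). It was negative for Cd34 (-0.92, adjusted p = 0.219), Dpp4 (-0.19) and Sema3c (-0.070). Ly6a and Procr, the most abundant of the list, were at 0.32 and 0.41 and were not called. Clec3b, which encodes tetranectin, was at 3.30, 1.83 and 1.87 CPM in RT_ICI, against 0.144, 0.478 and 0.669 CPM in ICI. Igfbp6, a binding protein of insulin-like growth factor, was at 12.1, 6.63 and 7.70 CPM in RT_ICI, against 1.73, 4.13 and 2.09 CPM in ICI. In both genes every RT_ICI library lay above every ICI library. The log2 fold changes were 2.41 (SE 0.55, adjusted p = 0.0404) and 1.73 (SE 0.40, adjusted p = 0.0402). Pi16 itself was at 4.29, 1.01 and 7.33 CPM in RT_ICI and 0.316, 1.33 and 0.795 CPM in ICI and was not called (adjusted p = 0.0880). Sfrp2, the gene in the title of the series, was at 3.05, 2.12 and 1.35 CPM in RT_ICI and 0.489, 0.151 and 2.03 CPM in ICI (adjusted p = 0.311). With 1 library left out at a time, the log2 fold change ran from 2.00 to 2.87 for Clec3b and from 1.43 to 2.19 for Igfbp6. Both calls ended without ICI replicate 1, ICI replicate 3, RT_ICI replicate 2 or RT_ICI replicate 4, and that of Clec3b also without ICI replicate 2. Over all genes edgeR called 0 without ICI replicate 1 or RT_ICI replicate 2 and 2 without ICI replicate 3, where the loss of a call says nothing of these genes. After a correction for transcript length and GC content the adjusted p was 0.0777 for Clec3b and 0.0694 for Igfbp6.

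Of 13 tested genes of contractile, myofibroblast-type CAFs 0 were called, with a median log2 fold change of 0.049. Acta2, smooth muscle actin, was at 21.5, 15.1 and 25.5 CPM in RT_ICI, against 36.7, 22.4 and 70.2 CPM in ICI (adjusted p = 0.141). Tnc and Adam12, the most abundant others, had log2 fold changes of 0.049 and -0.21. Of 12 genes of inflammatory CAFs, cytokines and related products, 0 were called, with a median of 0.24 and 6 positive. The groups did not overlap for 3 of the 12, all higher in RT_ICI, as were 17.8% of all tested genes. RT_ICI replicate 1 stood apart in this list, where the centred log2 CPM averaged 1.26. The other RT_ICI libraries stood at -0.012 (replicate 2) and -0.32 (replicate 4), and the ICI libraries at -0.50, -0.91 and 0.49. Of 16 further genes of microfibrils and elastic fibres 0 were called although 13 had a positive log2 fold change (median 0.33). Fbln5, a fibulin needed for elastic fibres, was at 197, 85.1 and 209 CPM in RT_ICI and 165, 186 and 165 CPM in ICI, and Ltbp3, which tethers latent TGF-beta, averaged 1.21-fold higher in RT_ICI (adjusted p = 0.390).

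Of the 4 ligands of the platelet-derived growth factor receptors 0 were called. Pdgfb, made by endothelium, was at 10.5, 10.2 and 7.23 CPM in RT_ICI, against 26.5, 8.43 and 31.2 CPM in ICI (adjusted p = 0.116), and Pdgfa at 21.2, 18.1 and 19.4 CPM in RT_ICI and 18.1, 20.5 and 22.4 CPM in ICI (adjusted p = 0.831). The receptor Pdgfrb averaged 20.0 ± 1.36 CPM in RT_ICI and 18.8 ± 5.23 CPM in ICI (SD, n = 3 each, adjusted p = 0.809).

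Lists for cells that border on fibroblasts varied by library as well. Of 8 genes of pericytes and smooth muscle 0 were called, and Des, which skeletal muscle also makes, ran from 536 CPM in RT_ICI replicate 1 to 9.22 CPM in ICI replicate 3. Skeletal muscle genes summed to 2485, 1094 and 19.6 CPM in RT_ICI and 232, 187 and 2.78 CPM in ICI. Blood endothelial genes summed to 271, 111 and 82.9 CPM in RT_ICI and 201, 96.6 and 207 CPM in ICI, with 0 of 7 called. The 7 melanoma genes varied less, summing to 14615, 9819 and 12292 CPM in RT_ICI and 15233, 14453 and 13429 CPM in ICI. Of the 7, 1 was called higher (Mlana) and 0 lower, where 4.46% of all tested genes were called higher and 4.72% lower. Only 2 of the 7 had a positive log2 fold change (median -0.13). How far the amount of each tissue in a tumour piece entered the CAF marker values was not tested.

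**Figure D4:**
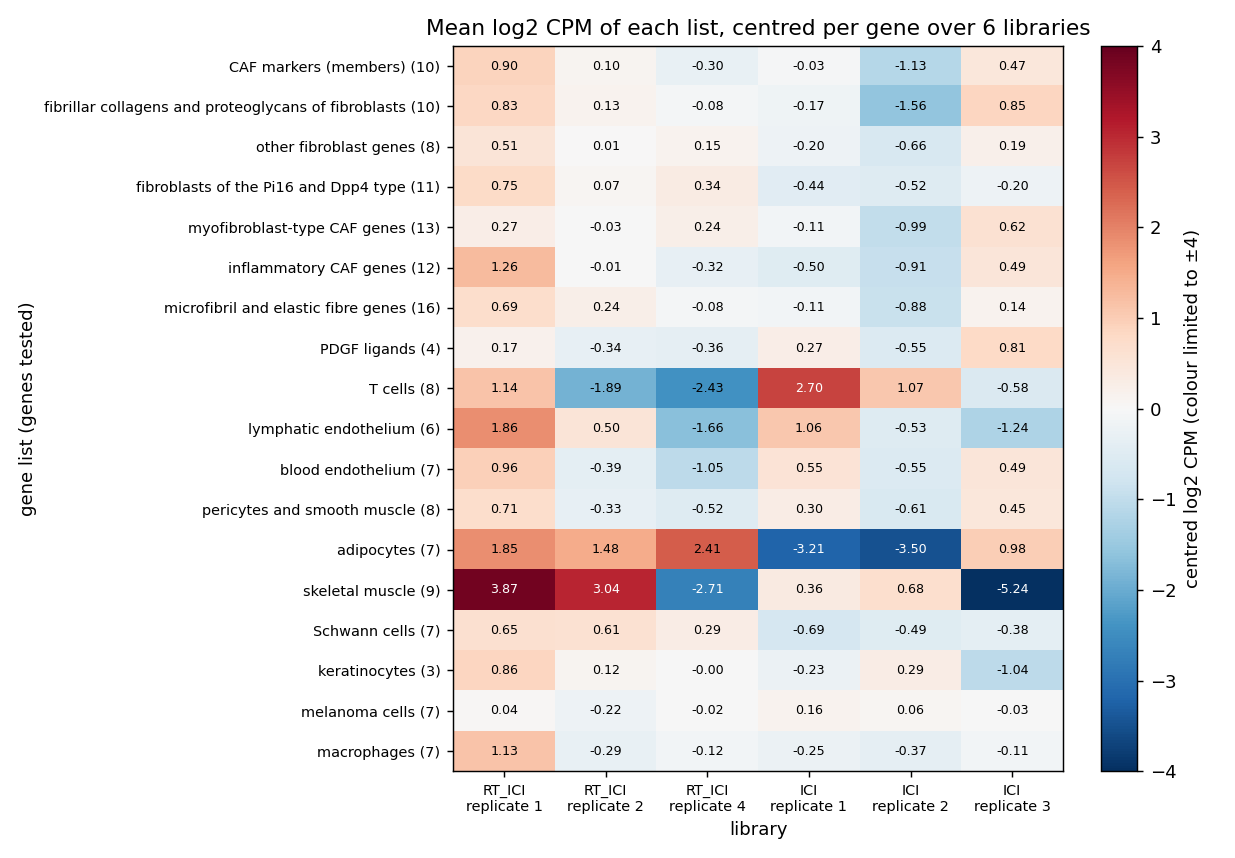
Mean log2 CPM of the tested genes of each list, centred per gene over the 6 libraries, RT_ICI libraries left and ICI libraries right, with numbers of tested genes in parentheses. The CAF markers and the fibroblast matrix genes are lowest in ICI replicate 2 (-1.13 and -1.56), while RT_ICI replicate 1 is above 0 for every list shown.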

How the data were processed

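The values deposited by the authors are raw gene counts of 6 libraries. Per the submitters' processing notes, HISAT2 was used and the builds were GRCm38 and mm10. The counting tool, its strand setting and all versions are not stated there. From the counts, edgeR 4.0.16 (R 4.3.3) kept genes with filterByExpr, scaled by TMM and ran the robust quasi-likelihood test, with Benjamini-Hochberg adjustment over 16924 genes. Standard errors came from the fold change and the F statistic, and the fit was tested on simulated data. Ratios used log2 CPM with a prior count of 2 and 2-sided exact permutation tests. Alternatives included DESeq2 1.42.0 and limma 3.58.1 (voom). Positions, lengths and GC content came from GENCODE M21 (GRCm38).

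The markers and the 18 other gene lists (160 entries, 158 found) were chosen with earlier results of these data known. Named genes were all 10 markers, up to 4 called members of each other list and its 2 most abundant tested genes, and not all of them are described. Whether every library is from its own mouse is not stated, and p-values then reflect only the variation among these libraries, which may be technical. No pair of libraries agreed within sampling noise (chi-square per degree of freedom at least 36.3). Reads shared by overlapping genes may be counted at either.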

Additional observations from a re-analysis of the deposited data

How the results depend on the processing

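The main fit gave 754 genes higher and 799 lower in RT_ICI. DESeq2 gave 1746 and 1703, the replicate block 400 and 245, the length and GC correction 263 and 356, no filter 1121 and 1507, and upper-quartile scaling 1046 and 497, which took the share of higher calls from 48.6% to 67.8% and the median log2 fold change of all genes from 0.014 to 0.10. Leaving out 1 library gave 0 to 1564 higher and 0 to 1545 lower. Of the markers, 0 were called higher and 0 lower. DESeq2 called 1 higher and 2 lower, no filter 2 lower (Thy1 and Fbln1, adjusted p = 0.00307 and 0.00701), and leaving out 1 library 0 higher and 0 to 2 lower. Replicate numbers 1 and 2 occur in both groups, but deviations from the group means correlated at 0.35 and 0.091 for these pairs and nothing in the labels ties them, so the numbers were not taken as pairs. The block called 4 markers higher (Pdgfra, Fbln2, Mfap5 and Dpt, adjusted p = 0.0354, 0.0118, 0.00386 and 0.00706) and 0 lower, where it called 3.81% of all tested genes, 2.36% higher.

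The signs of Thy1, Fbln1, Mfap5, Fbln2, Dpt and Pdgfra held under each setting tried. The log2 fold change of Fap (-0.42) was 0.13 with the block and ran from -0.87 to 0.11 with 1 library left out, and that of Pdpn (1.10) ran from -0.15 to 1.49. Postn (-0.065) was at 0.019 with upper-quartile scaling, 0.11 with limma-voom, 0.57 with the block, 0.062 after the length and GC correction and -0.42 to 0.49 with 1 library left out. Fbn1 (-0.023) was at 0.076, 0.055, 0.89 and 0.036 in the same 4 settings, at 0.017 with a filter of 1 CPM in 3 libraries and at -0.73 to 0.33 with 1 library left out. Thy1 was at adjusted p = 0.0508 after the length and GC correction. With the other markers as denominator, Dpt overlapped between groups (difference of the log2 ratio 1.38) and Pdgfra and Fap were separated as well. Each marker is part of the mean that the others were set against, so these ratios are not independent of one another. No share over all genes was computed for this denominator. The causes of these changes between settings were not tested. Counting error exceeded 10% of the count for Fap in all 6 libraries, for Pdgfra and Dpt in 3 each and for Pdpn in 2, and reached 27.7% for Fap.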

Other observations

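Of 6 mesothelial genes 0 passed the filter on low counts, and they summed to 1.63, 0.631 and 0.793 CPM in RT_ICI and 0.316, 0.327 and 0.272 CPM in ICI. Of the keratinocyte genes Krt5 was at 0 except for 0.0355 CPM in RT_ICI replicate 1, and Krt14 at 0 except for 0.0503 CPM in ICI replicate 2. Of the 3 tested genes of that list 0 were called. The groups did not overlap for 2, both higher in RT_ICI, as were 17.8% of all tested genes. Sbsn was at 3.76, 4.19 and 3.27 CPM in RT_ICI and 1.98, 2.72 and 2.09 CPM in ICI (adjusted p = 0.116). Perp was at 1.24, 0.586 and 1.12 CPM in RT_ICI and 0.230, 0.377 and 0.0418 CPM in ICI (adjusted p = 0.0783). Dsp had a log2 fold change of -0.81 (adjusted p = 0.482).

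Some genes of the CAF and microfibril lists differed widely between tumours of a group. Bulk RNA does not show which cells made these transcripts. Cxcl14, a chemokine of fibroblasts and skin, was at 59.4, 10.2 and 0.560 CPM in RT_ICI and 3.80, 1.66 and 1.57 CPM in ICI (adjusted p = 0.212). Lox, the collagen cross-linking oxidase, was at 71.6, 31.1 and 16.8 CPM in RT_ICI and 16.2, 3.27 and 19.9 CPM in ICI (adjusted p = 0.238). Lrrc15, a membrane protein of myofibroblast-type CAFs, was at 0.426, 1.17 and 1.21 CPM in RT_ICI and 0.316, 0.352 and 5.37 CPM in ICI, so that ICI replicate 3 held the most (adjusted p = 0.535). These 3 genes were chosen after their values were seen.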
